A study of Homo sapiens with 6 samples.

Results

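The 52 genes described here encode the proteins that license origins of DNA replication, unwind DNA at the fork, copy it, supply its nucleotides and pack the new strands into chromatin. They were chosen by name, complex by complex, among the 62696 genes of the count files, and all 52 had enough counts to be tested among 17307 tested genes. The samples were RNA-Seq libraries of DMS53, a neuroendocrine small cell lung cancer (SCLC) line, and the comparison asked what enforced expression of ONECUT2 (OC2), a homeodomain transcription factor, does to the transcriptome of these cells. In 3 control libraries the cells carried an empty lentiviral vector, and in 3 OC2-OE libraries they carried the same kind of vector with OC2 fused to a green fluorescent tag, expressed without induction. Both groups are transduced cells of 1 line that were selected with puromycin. The sources used here do not say whether they were kept as pools, nor the time between selection and RNA extraction.

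A cell licenses its origins in G1, when the origin recognition complex (ORC), CDC6 and CDT1 load rings of MCM2-7 onto DNA. In S phase CDC45 and the GINS complex join each ring to make the active helicase. Behind it, polymerase alpha makes primers, and polymerases delta and epsilon copy the strands on the sliding clamp PCNA. Many of these genes are transcribed under E2F factors as cells pass from G1 to S, so their messenger RNA is high in dividing cultures and low in cells that have left the cycle. SCLC is known for rapid division and for loss of RB1, the pocket protein that holds E2F factors in check. Whether the cells used here lack RB1 function was not tested.

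The libraries held 16533284 to 19099337 counts. Levels are given as CPM, counts scaled to the depth of each library with TMM factors, changes as log2 fold changes of OC2-OE over control with their standard error (SE), and a gene was called at an adjusted p below 0.001 in the quasi-likelihood test of edgeR, adjusted by Benjamini-Hochberg over all 17307 genes. ONECUT2 itself stood at 24.6 ± 0.332 CPM in control and 3944 ± 70.3 CPM in OC2-OE (SD, n = 3). Its log2 fold change was 7.33 (SE 0.0281, adjusted p = 1.95e-158). Libraries of 1 group differed from each other with 1.32 to 2.07 times the variance of sampling, and libraries of different groups with 94.1 to 104 times. The epithelial and neuroendocrine genes that define the line were present in every library: EPCAM stood at 730 ± 14.4 CPM in control and 925 ± 4.17 CPM in OC2-OE, and SYP at 335 ± 11.2 and 246 ± 4.598 CPM. The summed level of 12 markers of blood, stromal, vascular and basal cells was 24.3 to 28.5 CPM in control and 33.1 to 36.2 CPM in OC2-OE, most of it COL1A1 (21.6 and 27.8 CPM), and PTPRC and KRT5 had at most 3 counts in all 6 libraries together. Of these markers 5 had enough counts to be tested. COL1A1 and LYZ were called higher, with log2 fold changes of 0.37 and 2.44 (LYZ from 21 to 122 counts a group). CDH5 was called lower at -4.03 (from 52 to 3 counts a group), and 2 were not called. The part of these markers in the results was not tested.

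Most of the replication machinery was less abundant in the OC2-OE libraries. Of the 52 genes, 47 fell, 1 rose (ORC2) and 4 were not called (ORC3, ORC4, POLD3 and RFC1). In the same comparison 28.7% of all tested genes fell and 27.8% rose. The median log2 fold change of the 52 genes was -0.77, a level of 58.45% of control, and the median of all tested genes was 0.01. The falls were mostly moderate in size: 1 gene (GINS2) fell by 2 or more on the log2 scale, 12 fell by 1 to 2, 23 by 0.5 to 1 and 11 by less than 0.5. The 13 that fell by at least 1 compare with 9.04% of all tested genes. In 48 of the 52, the highest OC2-OE value was under the lowest control value, a separation that 36.7% of all tested genes showed.

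The summed level of the 52 genes was 4774, 4707 and 4722 CPM in control libraries 1 to 3 and 2831, 2823 and 2800 CPM in OC2-OE libraries 1 to 3. The sums of the 2 groups were far apart, and within a group they differed little. As a share of all counts the 52 genes made up 0.467%, 0.462% and 0.464% of the control libraries and 0.288%, 0.287% and 0.284% of the OC2-OE libraries. These are bulk libraries, in which fewer cells in S phase and less of these RNAs in each cell cannot be told apart. The plot of log2 fold changes by complex shows that the change was uneven, with GINS2 and RRM2 farthest to the left, POLD3, RFC1 and ORC4 near 0, and the ORC genes spread from ORC6 at -1.23 to ORC2 at 0.45.

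**Figure D1:**
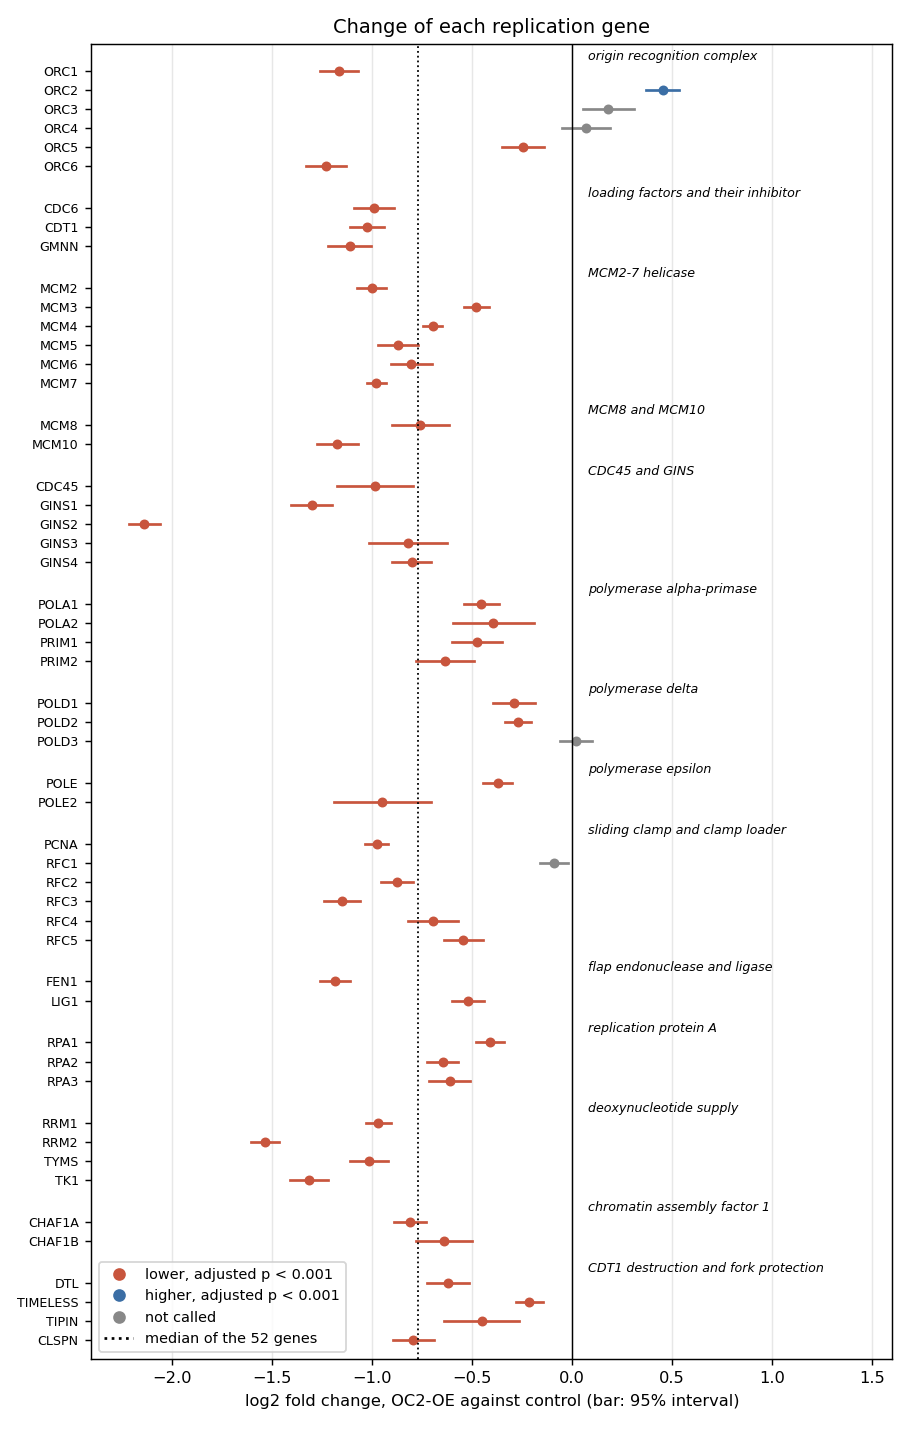
Log2 fold change of OC2-OE over control for the 52 replication genes, grouped by complex (vertical axis: genes), with bars of 95% intervals from edgeR's fit to 3 libraries a group. GINS2 lies farthest to the left at -2.14, and ORC2, at 0.45, is the gene called higher. Red marks genes called lower, blue higher and grey not called, and the dotted line is the median of the 52 genes.

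Since E2F factors are known regulators of these genes, the 250 bases before each start site in the RefSeq promoter table (GRCh38.p14) were searched on both strands for the E2F motifs TTTCGCGC, TTTGGCGC, TTTCCCGC and TTTGCCGC. The table held 58 start sites for 46 of the 52 genes, and MCM4, MCM5, GINS4, POLD3, RPA2 and RPA3 were not matched. A motif was present at 16 of the 58 sites (27.6%), and at 2.79% of all 35116 sites of the table. By gene, 16 of 46 (34.8%) had a motif at some site, and 5.29% of the 12264 tested genes with a site did. The 5-base motif CCAAT was present, on either strand, at 35 of the 58 sites (60.3%) and at 32% of all sites, and the median GC content was 65% at the 58 sites and 58% at all sites. The 16 genes with an E2F motif had a median log2 fold change of -0.71 (range -2.14 to 0.18), and the 30 genes without had a median of -0.80 (range -1.53 to 0.45), so both kinds of gene spanned most of the range of change. A match to these letters is a description of sequence and was not tested for binding.

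The promoters of 4 genes show what the search found, each written 5′ to 3′ on the strand of its gene with the matched bases in capitals. GINS2 (chr16:85688955-85689204, minus strand) and RFC3 (chr13:33817899-33818148, plus strand) had the largest and the next largest fall among genes with a motif, and their matches begin 31 and 55 bases before the start. ORC2 (chr2:200963661-200963910, minus strand) is the gene that rose, and these letters are not in its window. MCM6 (chr2:135876502-135876615, minus strand, 172 to 59 bases before the start) was chosen after its matches were seen, because the same 12 bases, which read as a motif on each strand, occur in it 2 times.
GINS2: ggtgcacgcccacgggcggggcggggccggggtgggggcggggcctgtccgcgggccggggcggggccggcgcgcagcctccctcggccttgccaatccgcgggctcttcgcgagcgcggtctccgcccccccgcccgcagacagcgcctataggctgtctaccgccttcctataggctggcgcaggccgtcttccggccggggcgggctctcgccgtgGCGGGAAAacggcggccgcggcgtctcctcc
RFC3: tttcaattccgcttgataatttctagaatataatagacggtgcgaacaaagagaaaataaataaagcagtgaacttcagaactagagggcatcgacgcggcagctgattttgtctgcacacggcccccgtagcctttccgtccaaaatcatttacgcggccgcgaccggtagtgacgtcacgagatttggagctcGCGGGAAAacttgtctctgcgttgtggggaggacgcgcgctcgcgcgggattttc
ORC2: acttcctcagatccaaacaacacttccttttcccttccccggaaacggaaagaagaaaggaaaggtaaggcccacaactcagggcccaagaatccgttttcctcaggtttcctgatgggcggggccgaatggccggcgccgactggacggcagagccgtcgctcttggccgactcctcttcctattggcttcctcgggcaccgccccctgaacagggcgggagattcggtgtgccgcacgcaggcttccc
MCM6: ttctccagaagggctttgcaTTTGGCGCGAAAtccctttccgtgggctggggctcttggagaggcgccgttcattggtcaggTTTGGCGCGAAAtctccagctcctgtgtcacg

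ORC, which marks origins, ranged from subunits that fell steeply, through ORC5, which fell slightly, to subunits that held or rose. ORC1, the ATPase subunit whose protein is degraded after origins fire, stood at 77.3, 74.7 and 75.5 CPM in control libraries 1 to 3 and at 33.4, 31.6 and 36.5 CPM in OC2-OE. Every OC2-OE value was far below every control value, and the log2 fold change was -1.16 (SE 0.0486, adjusted p = 1.76e-45). ORC6, the smallest subunit and the one most loosely bound to the others, fell likewise from 69.3, 65.1 and 67.3 CPM to 29.4, 28.97 and 27.8 CPM, a log2 fold change of -1.23 (SE 0.0511).

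ORC2, a core subunit that pairs with ORC3, went the other way. It stood at 59.7, 58.6 and 62.1 CPM in control and at 80.7, 83.6 and 82.4 CPM in OC2-OE, with no overlap, and its log2 fold change was 0.45 (SE 0.0416, adjusted p = 1.18e-18). ORC3 was at 23.9, 23.8 and 24.7 CPM in control and 27.9, 26.8 and 27.3 CPM in OC2-OE, which did not overlap but did not pass the threshold (log2 fold change 0.18, SE 0.0645, adjusted p = 0.00887). With libraries scaled by their total counts alone, ORC3 passed it, with a log2 fold change of 0.23 and an adjusted p of 8.53e-04 in edgeR's test. For ORC4 the groups overlapped (27.8 ± 1.80 and 29.1 ± 0.844 CPM, SD, n = 3), and the 95% interval of its log2 fold change ran from -0.05 to 0.19.

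ORC5 fell slightly, with means of 44.2 ± 2.11 and 37.4 ± 2.38 CPM (SD, n = 3). The log2 fold change was -0.25 (SE 0.0538, adjusted p = 2.66e-05 in edgeR's test). Without OC2-OE library 1 its adjusted p was 0.00344, and with DESeq2 it was 0.001001, neither of them below the threshold. Of the 6 ORC genes, 3 fell, 1 rose and 2 were not called, with a median log2 fold change of -0.09. Among all tested genes 28.7% fell and 27.8% rose, so these few calls say little about ORC as a set.

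The loading factors fell together with their inhibitor. CDC6, the ATPase that completes the loading platform, went from 60.8, 63.9 and 60.8 CPM to 31.6, 29.8 and 31.9 CPM, a log2 fold change of -0.99 (SE 0.0512). CDT1, which brings the MCM ring to ORC, went from 88.4, 91.4 and 86.8 CPM to 45.6, 41.2 and 44.2 CPM, a log2 fold change of -1.02 (SE 0.0442). GMNN, geminin, which binds CDT1 and blocks a further round of loading, went from 58.9, 55.6 and 54.6 CPM to 26.0, 25.7 and 26.7 CPM, a log2 fold change of -1.11 (SE 0.0542). All 3 genes were near 50% of control with no overlap between groups. Among all tested genes, 36.7% likewise had every OC2-OE library below every control library. Per exon length, CDT1 stood at 1.42 ± 0.0653 times GMNN in control and 1.5 ± 0.0698 times in OC2-OE (SD, n = 3), ranges that overlapped.

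All 6 genes of the MCM2-7 ring, the motor of the replicative helicase, fell, where 28.7% of all tested genes did. Their levels came to between 49.98% (MCM2) and 71.8% (MCM3) of control. MCM7, the most abundant of them per exon length, went from 442, 439 and 440 CPM in control libraries 1 to 3 to 228, 218 and 225 CPM in OC2-OE, a log2 fold change of -0.98 (SE 0.0245, adjusted p = 9.48e-68). MCM2 fell the most, from 134, 138 and 139 CPM to 69.3, 69.7 and 65.9 CPM, and MCM3 the least, from 164, 154 and 157 CPM to 114, 113 and 114 CPM. In each of these genes the libraries of a group lay close together and the groups were apart.

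Between these, the log2 fold changes were -0.70 for MCM4 (SE 0.0247), -0.80 for MCM6 (SE 0.0520) and -0.87 for MCM5 (SE 0.0510). The summed level of the 6 genes was 1252, 1244 and 1246 CPM in control and 714, 715 and 716 CPM in OC2-OE. Per exon length the order of the 6 genes was the same in all 6 libraries, from the highest MCM7 through MCM3, MCM4, MCM2 and MCM6 to MCM5. In CPM, not divided by length, MCM7 was above MCM4 in control (440 and 393 CPM) and below it in OC2-OE (223 and 243 CPM). The balance did shift: MCM3 stood at 0.433 ± 0.0127 of MCM7 in control and 0.612 ± 0.0129 in OC2-OE (SD, n = 3). The exon length counts every annotated exon of a gene, also those the cells may not use, so a level per length is approximate while its change between libraries is not affected.

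MCM10, which helps activate the loaded helicase and is outside the ring, fell from 68.8, 63.4 and 64.8 CPM to 31.2, 27.4 and 28.8 CPM, a log2 fold change of -1.17 (SE 0.0521). MCM8, a relative of the ring genes that works with MCM9 in recombination, fell by 0.76 on the log2 scale, from 27.6 ± 1.62 to 16.3 ± 1.61 CPM. Another annotated gene on the same strand shares 2564 of the 7691 exon bases of MCM8, and reads there count for neither, so the level of MCM8 is uncertain.

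CDC45 and GINS, the partners that turn the MCM ring into a working helicase, held the largest change. GINS2 (PSF2) went from 165, 167 and 161 CPM in control libraries 1 to 3 to 38.4, 36.5 and 37.3 CPM in OC2-OE, 22.7% of control. The groups were widely apart, with a log2 fold change of -2.14 (SE 0.0396, adjusted p = 7.06e-82). GINS1 (PSF1) followed, from 69.2, 64.4 and 68.1 CPM to 27.5, 28.9 and 25.6 CPM, a log2 fold change of -1.30 (SE 0.0522).

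The other members of the 4-subunit GINS complex fell less. GINS4 (SLD5) had a log2 fold change of -0.80 (SE 0.0505) and GINS3 (PSF3), the least abundant at 13.5 ± 0.382 CPM in control and 7.67 ± 0.773 CPM in OC2-OE a log2 fold change of -0.82 (SE 0.101). CDC45 went from 14.3, 16.97 and 15.7 CPM to 8.25, 7.27 and 8.12 CPM, a log2 fold change of -0.98 (SE 0.0969). Per exon length the order GINS2, GINS4, GINS1, CDC45, GINS3 was the same in all 6 libraries, while the ratio of the highest to the lowest fell from 19.3 in control to 7.79 in OC2-OE.

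**Figure D2:**
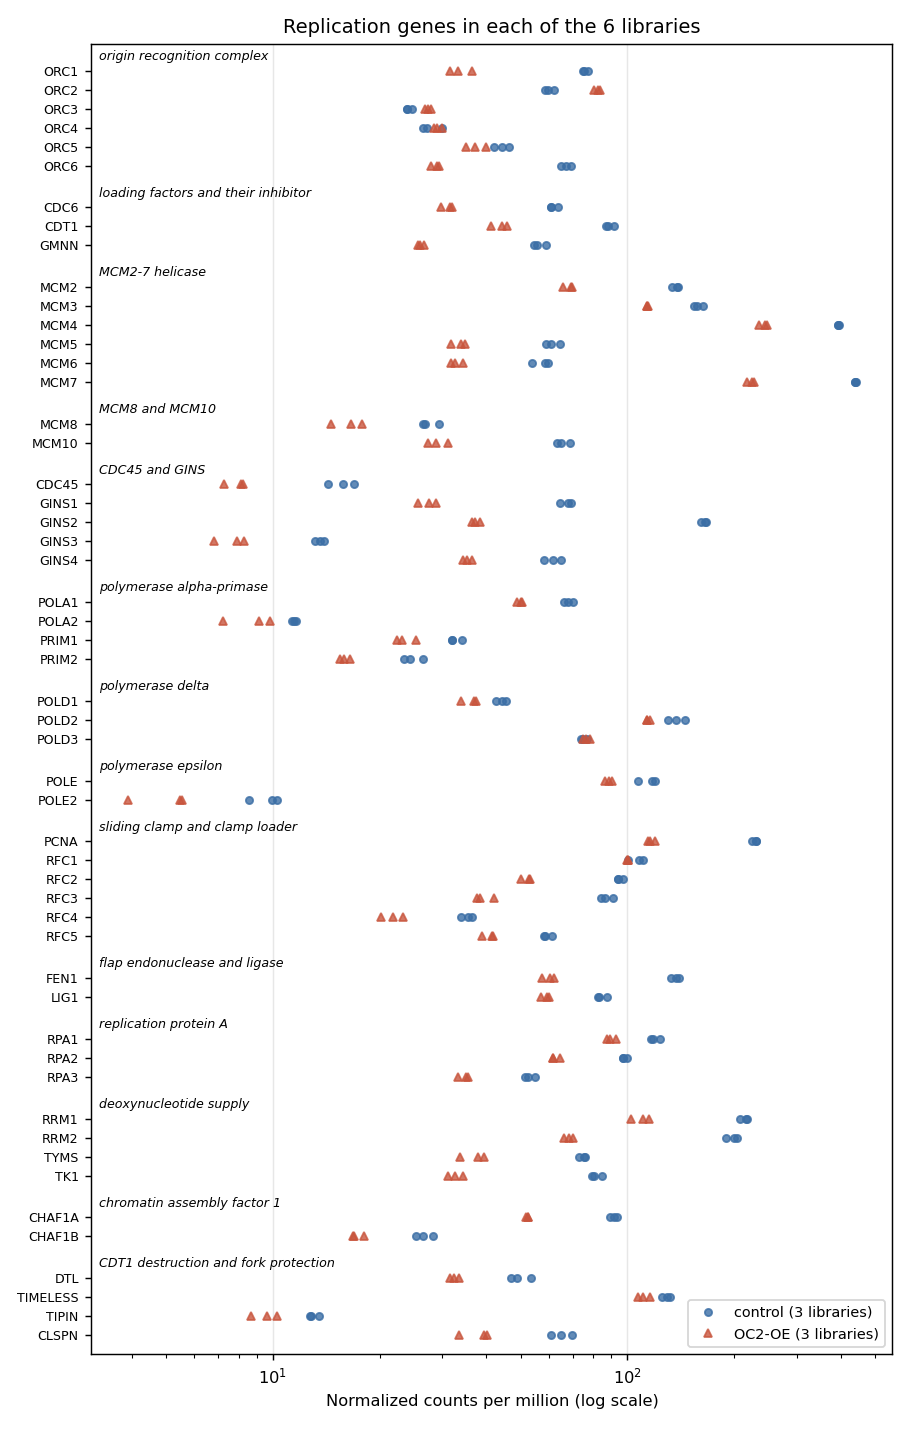
Level in CPM (horizontal axis, log scale) of the 52 genes, grouped by complex, in each of the 3 control (blue circles) and 3 OC2-OE libraries (red triangles), with no group mean drawn. The triangles lie to the left of the circles in 48 genes and to the right in 2 (ORC2 and ORC3), and they overlap in ORC4 and POLD3. Of all tested genes, 36.7% had every OC2-OE library below every control library.

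The polymerase genes changed least among the fork genes, with a median log2 fold change of -0.39. Of these genes 8 of 9 fell, where 28.7% of all tested genes did. All 13 helicase genes fell, with a median of -0.87. This difference between sets of genes is a description and was not tested. Polymerase alpha-primase makes the RNA-DNA primers, and its catalytic subunit POLA1 went from 70.2, 66.0 and 68.1 CPM to 48.7, 50.6 and 50.2 CPM, a log2 fold change of -0.45 (SE 0.0451). The primase subunits PRIM1 and PRIM2 fell by 0.47 (SE 0.0631) and 0.64 (SE 0.0735) on the log2 scale.

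POLA2, the accessory subunit, had 11.5 ± 0.130 CPM in control and 8.72 ± 1.35 CPM in OC2-OE, and its call was the least secure. Its log2 fold change was -0.39 (SE 0.103, adjusted p = 4.01e-04 in edgeR's test), and it missed the threshold when control library 1, 2 or 3 (adjusted p 0.00163, 0.0015 and 0.00149) or OC2-OE library 1 or 2 (0.00122 and 0.0243) was left out. It also shares 2012 of 5568 exon bases with another annotated gene of the same strand, and PRIM1 shares 139 of 2855 with NACA and 362 with another gene.

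Among the polymerases, delta, which copies the lagging strand, had the median closest to 0, at -0.27 on the log2 scale. POLD3, a regulatory subunit, stood at 76.9, 74.9 and 74.2 CPM in control and at 74.8, 78.6 and 76.2 CPM in OC2-OE. The groups overlapped, and the 95% interval of its log2 fold change ran from -0.06 to 0.10 (adjusted p = 0.65 in edgeR's test). The catalytic POLD1 fell by 0.29 (SE 0.0537) and POLD2 by 0.27 (SE 0.0340) on the log2 scale, to 81.8% and 82.9% of control. In polymerase epsilon, which copies the leading strand, the catalytic POLE fell by 0.37 (SE 0.0370) on the log2 scale. The small subunit POLE2 had a log2 fold change of -0.95 (SE 0.124), from 9.96, 8.55 and 10.3 CPM to 5.48, 5.54 and 3.90 CPM. The balance of POLA1 to POLE per exon length was 0.473 ± 0.0182 in control and 0.448 ± 0.0182 in OC2-OE (SD, n = 3), and these ranges overlapped.

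PCNA, the ring that tethers polymerases to DNA, was the most abundant of the 52 genes per exon length in both groups. It stood at 231, 231 and 225 CPM in control libraries 1 to 3 and at 116, 120 and 114 CPM in OC2-OE. All OC2-OE values were near 51% of control, with a log2 fold change of -0.98 (SE 0.0300, adjusted p = 1.36e-58). Against POLD3, PCNA went from 11.9 ± 0.167 to 5.97 ± 0.0924 per exon length within a library (SD, n = 3).

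The clamp loader that opens PCNA split by subunit. RFC3 fell from 86.6, 84.0 and 91.2 CPM to 42.2, 37.6 and 38.3 CPM, a log2 fold change of -1.15 (SE 0.0459). RFC2 fell by 0.87 (SE 0.0416), RFC4 by 0.70 (SE 0.0632) and RFC5 by 0.54 (SE 0.0488) on the log2 scale. RFC1, the large subunit, was at 111, 108 and 101 CPM in control and at 100.0, 100.1 and 100.2 CPM in OC2-OE. These values lay just below the lowest control value, and the log2 fold change of -0.09 (SE 0.0361, adjusted p = 0.0229) was not called. RFC3 stood at 1.93 ± 0.168 times RFC1 per exon length in control and at 0.923 ± 0.0589 times in OC2-OE (SD, n = 3).

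Behind the fork, FEN1, the nuclease that trims flaps of Okazaki fragments, fell from 133, 138 and 140 CPM to 62.1, 60.4 and 57.4 CPM, a log2 fold change of -1.19 (SE 0.0379). LIG1, the ligase that seals them, fell less, from 82.4, 87.6 and 83.4 CPM to 59.96, 59.5 and 57.2 CPM, a log2 fold change of -0.52 (SE 0.0417). Both were lower in every OC2-OE library than in any control library, as were 36.7% of all tested genes. FEN1 fell from 8.35 ± 0.276 to 5.26 ± 0.0878 times LIG1 per exon length (SD, n = 3). RPA1, RPA2 and RPA3, which coat single-stranded DNA, fell by 0.41 (SE 0.0359), 0.65 (SE 0.0397) and 0.61 (SE 0.0517) on the log2 scale, where 28.7% of all tested genes fell. Their order per exon length, RPA2 above RPA1 above RPA3, was the same in all 6 libraries.

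The 4 genes of deoxynucleotide supply had the lowest median of all complexes, -1.16, or 44.6% of control. RRM2, the small subunit of ribonucleotide reductase that is made in S phase, fell from 204, 189 and 200 CPM to 70.1, 66.2 and 68.6 CPM. The groups were far apart, with a log2 fold change of -1.53 (SE 0.0346, adjusted p = 1.07e-72), the next largest after GINS2 among the 52 genes. RRM1, the large subunit, fell by 0.97 (SE 0.0318) on the log2 scale, so that RRM2 went from 0.428 ± 0.00839 to 0.289 ± 0.0216 of RRM1 per exon length (SD, n = 3).

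TK1, the thymidine kinase of the salvage pathway, fell from 79.4, 80.4 and 84.8 CPM to 34.3, 31.2 and 32.7 CPM, a log2 fold change of -1.31 (SE 0.0479). TYMS, thymidylate synthase, fell from 73.0, 75.7 and 75.3 CPM to 33.7, 37.9 and 39.4 CPM, a log2 fold change of -1.01 (SE 0.0482). Neither overlapped between groups, and 36.7% of all tested genes were likewise lower in every OC2-OE library. The summed level of the 4 genes was 572, 553 and 578 CPM in control and 249, 250 and 243 CPM in OC2-OE. RRM2B, the p53-inducible relative of RRM2 and not among the 52 genes, rose from 85.7 ± 1.99 to 121 ± 3.17 CPM, a log2 fold change of 0.50 (SE 0.0360). Within a library RRM2 stood at 1.36 ± 0.0781 times RRM2B per exon length in control and at 0.332 ± 0.0172 times in OC2-OE (SD, n = 3). By this approximate measure the higher of these genes changed, and it also did in CPM, where RRM2 had means of 198 and 68.3.

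These ratios do not depend on how libraries were scaled against each other, but their pairs were chosen after the values were seen and were not tested. In ORC, the ratio of ORC1 to ORC2 per exon length was 2.42, 2.38 and 2.27 in control libraries 1 to 3 and 0.772, 0.707 and 0.827 in OC2-OE, and that of ORC6 to ORC2 fell from 1.51 ± 0.0537 to 0.473 ± 0.0182 (SD, n = 3). At the helicase, GINS2 fell from 6.1 ± 0.314 to 3.41 ± 0.246 times GINS1 and from 0.509 ± 0.00924 to 0.228 ± 0.00201 of MCM7. Subunits of 1 complex therefore differed in how much they changed.

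The chromatin assembly factor genes CHAF1A and CHAF1B, whose proteins bring histones to PCNA behind the fork, fell by 0.81 (SE 0.0417) and 0.64 (SE 0.0707) on the log2 scale. CHAF1A stood at 89.3, 91.6 and 93.6 CPM in control and at 51.9, 52.3 and 52.4 CPM in OC2-OE, with no overlap. All 4 genes of CDT1 destruction and fork protection fell (28.7% of all tested genes fell), with a median log2 fold change of -0.54. CLSPN, claspin, which links the stalled fork to CHK1, fell by 0.79 (SE 0.0529) and DTL, which directs the ubiquitin ligase that destroys CDT1 in S phase, by 0.62 (SE 0.0539) on the log2 scale.

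TIMELESS and TIPIN form a pair that steadies the fork. TIMELESS fell the least of all called genes, from 132, 130 and 125 CPM to 111, 116 and 107 CPM, a log2 fold change of -0.21 (SE 0.0341, adjusted p = 2.07e-08). TIPIN fell by 0.45 (SE 0.0963) on the log2 scale, from 13.01 ± 0.429 to 9.52 ± 0.807 CPM, and without OC2-OE library 1 its adjusted p was 0.00138 in edgeR's test, above the threshold. A same-strand pseudogene shares 579 of the 2739 exon bases of TIPIN, so its level is uncertain.

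A separate list of 50 other genes of replication includes some further subunits of these complexes, such as POLE4 and RBBP4. On the whole the list changed in the same direction as the genes above: 33 fell, 3 rose and 14 were not called. Of all tested genes 28.7% fell and 27.8% rose, and the median log2 fold change of the list was -0.48. TOP2A, the topoisomerase that untangles sister strands and also acts in mitosis, fell by 2.29 (SE 0.0332) on the log2 scale, from 302 ± 14.7 to 61.7 ± 1.66 CPM (SD, n = 3). TICRR (treslin), which helps fire origins, fell by 1.77 (SE 0.0858), the CDC7 activator DBF4 by 1.13 (SE 0.0555) and DSCC1, of an alternative clamp loader, by 1.12 (SE 0.0548). The histone chaperone ASF1B fell to 35.4% of control. The 3 that rose, named after their values were seen, were RRM2B, the checkpoint kinase ATR (log2 fold change 0.49, SE 0.0478) and POLE4, a histone-fold subunit of polymerase epsilon (0.49, SE 0.0953).

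Among 29 E2F and G1/S regulators, 17 fell, 4 rose and 8 were not called, against the same 28.7% and 27.8% of all tested genes, with a median log2 fold change of -0.35. E2F1, an activating E2F factor, had 80.7 ± 1.12 CPM in control and 41.3 ± 0.918 CPM in OC2-OE (SD, n = 3) and a log2 fold change of -0.96 (SE 0.0450). RNA of RB1 was present at 74.75 CPM in control and 61.6 CPM in OC2-OE, and was called lower with a log2 fold change of -0.28 (SE 0.0423). Cyclin A2 (CCNA2), which partners CDK2 in S phase, fell by 2.25 (SE 0.0486), the repressor E2F8 by 1.39 (SE 0.0789), cyclin E2 (CCNE2) by 1.36 (SE 0.0688), cyclin D1 (CCND1) by 1.24 (SE 0.0516) and the phosphatase CDC25A by 1.23 (SE 0.0620). The 4 that rose, named after their values were seen, were CDK6 (0.44), E2F5 (0.32), CCND2 (0.24) and RBL2 (0.16), of which CDK6 and cyclin D2 act together in G1 and E2F5 and RBL2 are repressors.

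Genes of mitosis fell further than the replication genes. Of 20 such genes, 19 fell, each by at least 1 on the log2 scale, with a median of -2.07, whereas 28.7% of all tested genes fell and 9.04% fell by at least 1. The mitotic kinase PLK1 fell by 2.75 (SE 0.0503), the kinesin KIF20A by 2.67 (SE 0.0463), the anaphase activator CDC20 by 2.55 (SE 0.0442). The log2 fold changes of the centromere protein CENPF and of survivin (BIRC5) were -2.33 (SE 0.0330) and -2.29 (SE 0.0466). NUSAP1, not called, had only 1.04 and 0.651 CPM, and it shares 2938 of its 3608 exon bases with another gene of the same strand. The difference between lists was not tested, and the members of the lists were chosen with results of these data known.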

How the data were processed

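RNA-Seq was done on 3 control and 3 OC2-OE libraries of DMS53 cells, prepared as stranded poly(A) libraries. The authors aligned reads with STAR version 2.7.9a to GRCh38 and deposited raw counts of read pairs per gene (featureCounts version 1.6.0, GENCODE 42, reverse strand). Reads on shared exons of same-strand genes were left out by that counting. Groups were taken from the labels. Counts were normalised by TMM and tested with edgeR version 4.0.16 (filterByExpr, robust quasi-likelihood test, no covariate) in R version 4.3.3, with Benjamini-Hochberg adjustment over 17307 genes and the study's threshold of 0.001. The script was tested on simulated data. DESeq2 version 1.42.0, limma voom version 3.58.1, other scalings and filters, and leaving out each library were alternatives. The study describes its RNA-Seq experiments as independent. The labels do not say how cultures were kept apart, so p-values measure the spread between these samples. Depth was 16533284 to 19099337 counts a library, which limits genes of few counts. The biological coefficient of variation was 2.2%.

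The 52 genes and the other lists were chosen with earlier results of these data known. All 52 genes are named. Of the lists of other replication genes, regulators and mitotic genes, the 5 called genes with the largest absolute change and a mean log2 CPM of at least 3 are named, with E2F1 and ONECUT2. Outside that rule, the genes of these lists that rose are named, chosen after their values were seen. So are RB1, NUSAP1, the mitotic gene not called, and the genes under Other observations. Promoters were those of the 2 largest falls with a motif and the largest rise without, and MCM6 was added after its matches were seen. Line markers summed to 6397 to 6603 CPM in control and 4331 to 4363 CPM in OC2-OE.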

Additional observations from a re-analysis of the deposited data

How the results depend on the processing

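Across 15 alternative scalings, filters, tools and left-out libraries, 48 of the 52 genes kept direction and side of the threshold in each, and no gene changed direction. The others were ORC3, ORC5, POLA2 and TIPIN, as given in the report. POLA2 also missed the threshold with libraries scaled by total counts alone (adjusted p 0.00212), with upper-quartile scaling (0.0016) and with DESeq2 (0.0069). Leaving out 1 library at a time gave 44 to 47 falling genes and a median log2 fold change of -0.79 to -0.72. With the replicate number as a replicate block, 47 fell and 1 rose, as without it. The deviations of same-numbered libraries correlated at -0.00331, 0.0205 and 0.0146, and those of differently numbered libraries at -0.022 to 0.00711. The labels do not say whether the numbers pair the libraries. These correlations cannot decide it, because libraries of 1 group differed with only 1.32 to 2.07 times the variance of sampling. Rising genes numbered 2 when scaled by total counts alone and 2 with the threshold at 0.05, which also gave 5 rising genes among the other replication genes. Requiring a change of 1 on the log2 scale left 13 of 52 replication genes, 7 of 50 other replication genes and 7 of 29 regulators falling. Among all tested genes 9.04% fell by as much, a share not far below that of the other replication genes. Rising genes at that cut numbered 0 in each of these 3 lists, also 0 in DESeq2 and 0 at an unadjusted p of 0.05. The median of all genes was 0.06 when scaled by total counts alone and 0.01 by TMM. Read depth limits POLE2, CDC45, GINS3, POLA2 and TIPIN, the least abundant genes with the widest standard errors.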

Other observations

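Some genes that act when a licensed origin fires, outside the 52 genes and beyond TICRR and DBF4, were also called lower. They fall outside the rule for naming and were chosen by function after their values were seen, so they say nothing of other genes of this step. CDC7, the kinase that phosphorylates the MCM ring, fell by 0.50 (SE 0.0513) on the log2 scale, from 54.6 ± 2.08 to 38.5 ± 2.88 CPM (SD, n = 3), and DBF4B, an alternative activator of CDC7, by 0.64 (SE 0.0577). RECQL4, a helicase needed for initiation, fell by 0.97 (SE 0.0391), from 116 ± 3.13 to 59.1 ± 1.55 CPM. MTBP, the partner of treslin, fell by 0.61 (SE 0.0775), DONSON by 0.53 (SE 0.0719) and TOPBP1, which joins treslin to the origin, by 0.46 (SE 0.0438).

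Values of histone chaperones and histone-binding proteins on the list of other replication genes, also chosen after their values were seen, ranged from a steep fall to no call. ASF1B fell to 35.4% of control and its relative ASF1A to 83.4%, while SUPT16H and SSRP1, which form the FACT complex, fell by 0.50 (SE 0.0365) and 0.40 (SE 0.0355) on the log2 scale. NASP, which holds soluble histone H3 and H4, fell by 0.37 (SE 0.0370). In each of these genes the adjusted p of edgeR's test was below the threshold of 0.001. RBBP4, the histone-binding subunit of chromatin assembly factor 1, and TONSL, which binds new histone H4, were not called, with log2 fold changes of -0.06 and 0.02.

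RNASEH2A and CHTF8, on the list of other replication genes, had few counts. They share 1095 of 2056 and 2861 of 3382 exon bases with another annotated gene of the same strand, and held 57 and 277 counts over all 6 libraries.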
